A study of Homo sapiens with 12 samples.

Results

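Enzymes that make fat-soluble chemicals easier to excrete were followed across 3 lung cancer cell lines in their 3 main families, the cytochromes P450 (CYP), the UDP-glucuronosyltransferases (UGT) and the cytosolic sulfotransferases (SULT). Members were taken by name, as every gene on the arrays whose symbol is that of a numbered CYP, UGT or SULT enzyme. This rule uses no measured value, but it was chosen with earlier results of these data known. This gave 77 genes (54 CYP, 12 UGT and 11 SULT) of 36332 gene names, covered by 108 of 50599 probes. Of these, 51 genes (38 CYP, 7 UGT and 6 SULT) had a probe well above background on at least 3 of 12 arrays and could be tested, among 24856 genes tested in all. A549 and PC14 are human lung adenocarcinoma lines, and PC14CDDP is a cisplatin-resistant line derived from PC14. Each line was transfected at 25 nM with pre-miR-197, a precursor that supplies the microRNA, with its control AllStar-NC (NC below), with LNA-miR-197, a locked nucleic acid that blocks the microRNA, or with its control LNA-miR-NC (LNA-NC below), and 100 ng of total RNA from each was hybridized with Cy3 to 1 Agilent array. No cells were left untransfected, each line is a single established culture, and no transfection was repeated within a line.

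Cytochromes P450 are heme enzymes that insert oxygen into their substrates. Some oxidize drugs, carcinogens and other foreign compounds (phase I), and others make or destroy steroids, bile acids, vitamin D, retinoic acid and lipid mediators. UGTs then attach glucuronic acid and SULTs attach sulfate (phase II), from the cosubstrates UDP-glucuronic acid and PAPS. In airway epithelium the best known members are those induced by the aryl hydrocarbon receptor, which senses polycyclic aromatic hydrocarbons in smoke, and the liver carries most of the drug-metabolizing members.

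Signals are given on a log2 scale on which 0 is the 75th percentile of the background-subtracted signals of that array, and SDs are over the 4 arrays of a line. Since each probe binds with its own strength, a value is compared between arrays and not between genes. That percentile was 613 to 719 in signal units, and 55.8% to 63.1% of probes were well above background. All A549 arrays lay on slide 1 and all PC14 and PC14CDDP arrays on slide 2, so slide and line cannot be told apart for A549, and each transfection had its own slide column in every line, so position and transfection cannot be told apart either. Of 5 epithelial markers, KRT8, KRT18 and KRT19 were well above background on all 12 arrays, EPCAM on 4 A549, 3 PC14 and 0 PC14CDDP arrays and CDH1 on 4, 2 and 0. Of 5 lung lineage markers, SFTPC and NAPSA were so on all 12 arrays, NKX2-1 on 0 A549 arrays and all 4 of each other line, and SFTPA1 and SFTPB on 1 array each. Of 4 liver markers, APOA1 and SERPINA1 were so on all 12 arrays, TTR on 3 and ALB on 1, all in A549. Of the markers of other cell types, PTPRC and CD14 (immune), CDH5 (endothelial) and COL1A1 (fibroblast) were so on all 12 arrays, CD3E on 3 A549, 2 PC14 and 2 PC14CDDP arrays, PECAM1 on 1, 4 and 0, and COL1A2 and PDGFRB on 0 of 12. The part of any of these markers in the results below was not tested.

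Of the 51 tested genes, 42 (82.4%) were well above background on all 4 A549 arrays, 33 (64.7%) on all 4 of PC14 and 28 (54.9%) on all 4 of PC14CDDP, and 24 on all 12. Over all genes tested these shares were 85.9%, 85.0% and 78.5%, and the difference between lines was not tested. The mean signal was highest in A549 for 35 genes (68.6%, with 42.4% of all genes), in PC14 for 10 (19.6%, with 25.7%) and in PC14CDDP for 6 (11.8%, with 31.8%). By the brightest probe of each gene, 7 genes were well above background on every A549 array and on 0 of the 8 others: CYP2S1, CYP3A5, CYP4F11, CYP4F12, CYP24A1, UGT1A8 and UGT2B7. Over all genes tested, 2.14% had this pattern for A549, 0.439% for PC14 (CYP4F22 among the members) and 0.253% for PC14CDDP (0 members). The other 26 members stayed under the limit of 3 arrays, with at most 2. They included CYP19A1, the aromatase that makes estrogens, whose 4 probes were above background on 0 arrays, and SULT1E1, the estrogen sulfotransferase, on 1. SULT1A1 was not analysed here.

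**Figure D1:**
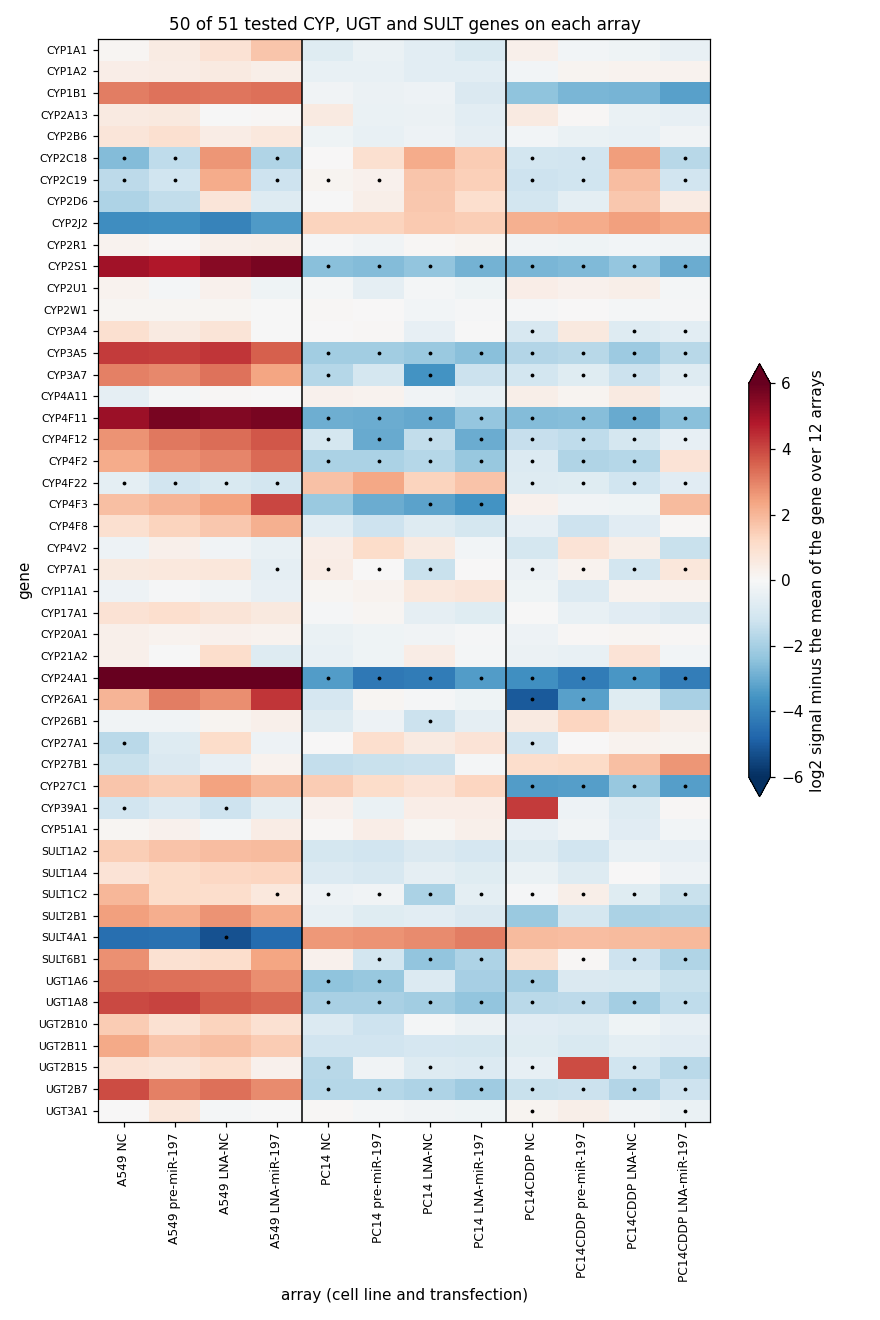
Signal of 50 of the 51 tested genes (rows) on each of the 12 arrays (columns, grouped by cell line), as log2 signal minus the mean of that gene over the 12 arrays; dots mark arrays on which the probe was not well above background, and colors end at the limits of the scale, which CYP24A1 exceeds. The A549 block is red for CYP24A1, CYP4F11, CYP2S1 and the UGT1A genes and blue for SULT4A1 and CYP2J2, and the LNA-NC columns are redder than their neighbors for CYP2C18, CYP2C19 and CYP2D6.

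By limma with transfection and line as terms and Benjamini-Hochberg adjustment over all genes tested, 31 of the 51 members were higher in A549 than in PC14 and 8 were lower. The matching shares over all genes were 35.8% higher and 32.4% lower, against 60.8% and 15.7% of the members. Members that were above background in A549 only entered the test through A549 and had to differ, so these shares describe the list and support nothing more, and for such members the bound is given below without a p-value. Between PC14CDDP and PC14, 8 members were higher (15.7%, with 25.1% of all genes) and 11 lower (21.6%, with 23.3% of all genes). The share lower lay near that of all genes. The counts for single lists below are to be read beside the same shares of all genes. The arrays of a line are cultures of that line under different transfections, so these p-values measure the spread between cultures and not between independent lines, and in such bulk samples fewer cells of a type cannot be told apart from less RNA per cell.

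**Figure D2:**
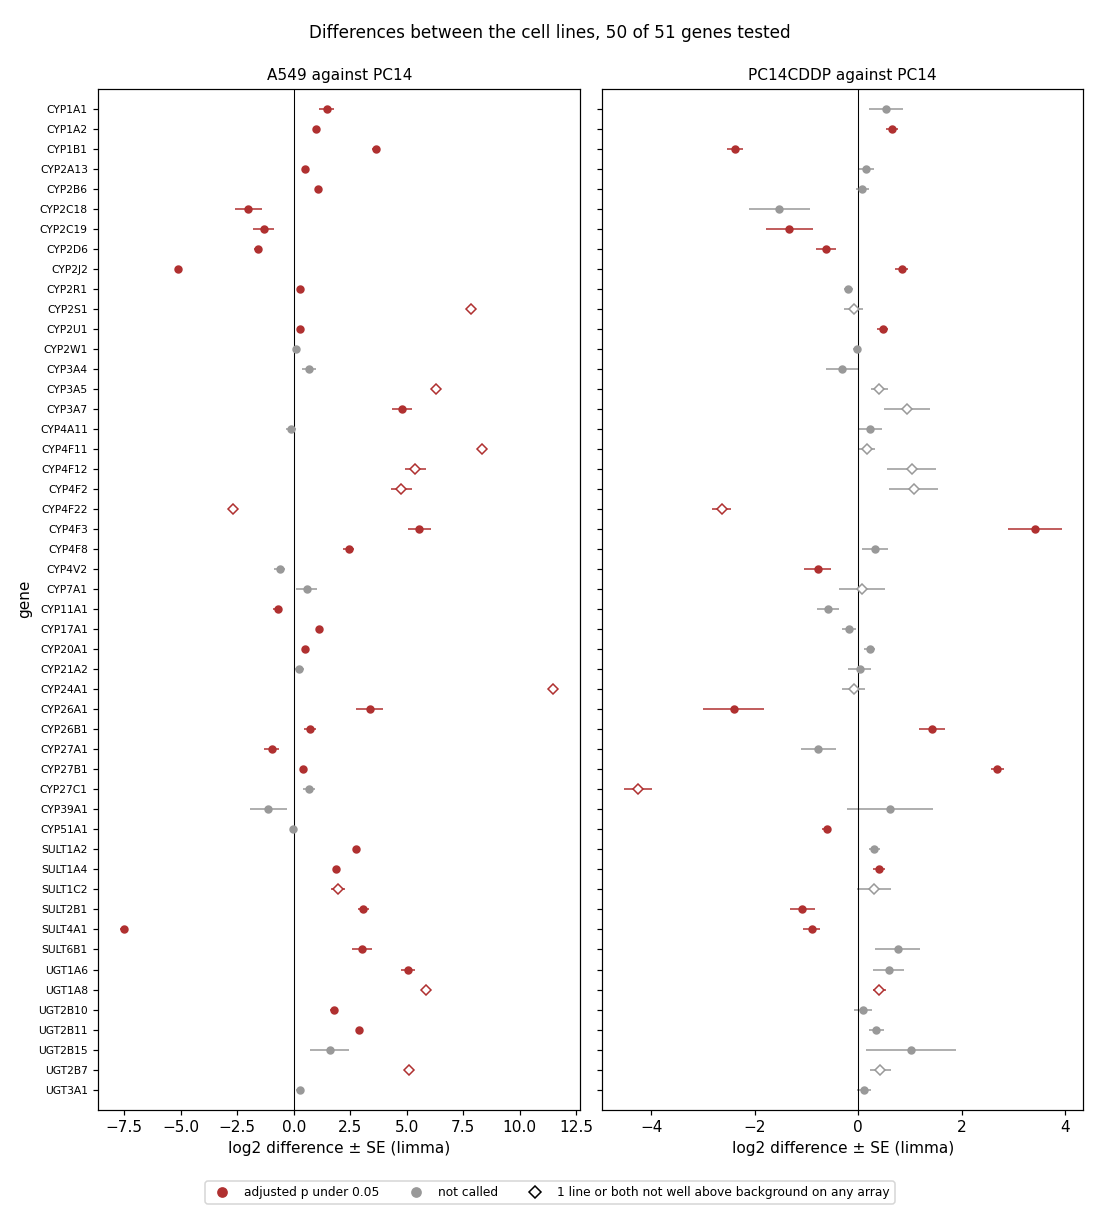
Log2 difference ± SE from limma for 50 of the 51 tested genes, A549 against PC14 (left) and PC14CDDP against PC14 (right); red marks an adjusted p under 0.05, gray the rest, and open diamonds genes with every array of at least 1 of the lines not well above background, whose position is not a measured fold. CYP24A1 lies farthest right and SULT4A1 farthest left in A549 against PC14; CYP4F3 and CYP27B1 are the farthest right and CYP27C1 the farthest left in PC14CDDP against PC14.

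The CYP1 genes, which oxidize aromatic hydrocarbons and are the classical targets of the aryl hydrocarbon receptor, were all higher in A549 than in PC14 (3 of 3). CYP1B1 signal was 3.15, 3.33, 3.27 and 3.38 in A549 after NC, pre-miR-197, LNA-NC and LNA-miR-197, against -0.13, -0.28, -0.25 and -0.79 in PC14 and -2.35, -2.68, -2.73 and -3.19 in PC14CDDP. The 3 lines thus formed 3 separate bands, with A549 highest and PC14CDDP lowest. The log2 difference was 3.64 ± 0.16 (SE) for A549 against PC14 (limma adjusted p = 3.7e-07) and -2.38 ± 0.16 for PC14CDDP against PC14 (limma adjusted p = 1.2e-05). A second CYP1B1 probe had means of 1.37, -2.51 and -4.87 in A549, PC14 and PC14CDDP, the same order. CYP1A1 signal was dimmer and varied more within A549, from -4.66 after NC to -3.12 after LNA-miR-197, and averaged -4.00 ± 0.66 (SD, n = 4) in A549, -5.46 ± 0.21 in PC14 and -4.93 ± 0.33 in PC14CDDP. It was higher in A549 than in PC14 by 1.46 ± 0.33 (SE, limma adjusted p = 0.00441), while PC14CDDP against PC14 missed the threshold at 0.53 ± 0.33 (limma adjusted p = 0.23) and their arrays overlapped. CYP1A2, which clears caffeine, averaged -2.46 in A549, -3.43 in PC14 and -2.78 in PC14CDDP, and unlike CYP1B1 it was higher in PC14CDDP than in PC14 (0.65 ± 0.11, limma adjusted p = 0.00144).

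Genes of the receptor itself moved in the same comparison. AHR averaged 1.31 ± 0.23 (SD, n = 4) in A549, -2.60 ± 0.39 in PC14 and -2.33 ± 0.26 for PC14CDDP, a log2 difference of 3.91 ± 0.21 (SE) for A549 against PC14 (limma adjusted p = 1.1e-06). The receptor's repressor AHRR and its target TIPARP were higher in A549 too, by 2.62 ± 0.25 and 1.12 ± 0.10, and the partner ARNT did not pass the test (-0.22 ± 0.10, limma adjusted p = 0.087). In PC14CDDP, where CYP1B1 was lowest, AHR differed from PC14 by only 0.26 ± 0.21 (limma adjusted p = 0.336), and ARNT and TIPARP were higher by 0.61 ± 0.10 and 0.49 ± 0.10. Of 14 regulators tested in all, 9 were higher and 4 lower in A549 than in PC14, and 4 were higher and 4 lower in PC14CDDP than in PC14.

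Stretches before the transcription start are shown for 3 of these genes that RefSeq's promoter table holds, because receptors and factors that control these families are known to act through short sequences, some of them near the start. A motif search on both strands covered the 250 bases before each start, and 2 motifs are given here. The letters were GCGTG for the core bound by the aryl hydrocarbon receptor and ARNT, and TGACNNNGC for the antioxidant response core bound by NRF2. The search covered 73 promoters of 58 of the 77 members. Whether the table holds promoters of the other members is not given here. Of the 73 promoters, 14 (19.2%) held the first and 8 (11%) the second motif. Among all 35116 promoters searched the shares were 32.2% and 10.9%. Each of the 3 below, written on the gene's strand, holds 1 match, in capitals: the first motif in CYP1A1 and UGT1A8 and the second in CYP4F11. The matches in CYP4F11 and UGT1A8 lie on the opposite strand and appear as their reverse complement. A second CYP4F11 promoter in the table, at another start, held 0 matches. A match is a run of letters and not evidence of binding. Positions are GRCh38.p14, at chr15:74725529-74725778 (minus strand) for CYP1A1, chr19:15934868-15935117 (minus strand) for CYP4F11 and chr2:233617383-233617632 (plus strand) for UGT1A8.
CYP1A1: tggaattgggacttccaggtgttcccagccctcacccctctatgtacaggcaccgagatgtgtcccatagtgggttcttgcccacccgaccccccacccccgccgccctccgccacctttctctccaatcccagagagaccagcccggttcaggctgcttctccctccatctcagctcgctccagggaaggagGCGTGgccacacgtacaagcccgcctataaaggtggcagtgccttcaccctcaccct
CYP4F11: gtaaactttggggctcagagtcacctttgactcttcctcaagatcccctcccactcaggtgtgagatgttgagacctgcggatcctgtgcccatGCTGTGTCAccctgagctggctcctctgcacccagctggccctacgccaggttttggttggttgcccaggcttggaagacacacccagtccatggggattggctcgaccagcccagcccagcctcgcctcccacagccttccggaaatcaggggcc
UGT1A8: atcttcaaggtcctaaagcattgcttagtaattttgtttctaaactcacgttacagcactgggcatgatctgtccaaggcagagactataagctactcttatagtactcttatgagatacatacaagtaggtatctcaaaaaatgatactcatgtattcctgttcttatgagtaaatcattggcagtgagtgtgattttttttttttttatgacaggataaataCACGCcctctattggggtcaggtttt

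Among the drug-metabolizing CYP2 and CYP3 genes, 5 of 11 tested were higher in A549 than in PC14 (45.5%, with 35.8% of all genes). Another 3 were lower (27.3%, with 32.4% of all genes). CYP2S1, an epithelial P450 expressed outside the liver, was at 0.51, 0.28, 0.92 and 1.16 in A549 (same order of transfections) and not well above background in PC14 or PC14CDDP, where it lay between -7.52 and -6.89. A549 was therefore at least 127-fold higher than PC14. This and the other such bounds set the mean of the brighter line against the lowest signal that counts as well above background on each dim array, or the dim probe's own signal where that is higher. They hold for the main processing only, and differences under the alternatives fell below them for several genes, as given at the end. CYP3A5, the main CYP3A enzyme of the lung, was at -1.90, -1.96, -1.79 and -2.49 in A549 and not well above background in either other line, at least 18.8-fold higher than in PC14; its second probe was above background on 4 A549, 0 PC14 and 1 PC14CDDP arrays. Its neighbor CYP3A7, the fetal liver form, followed it, with A549 means of -2.05 ± 0.37 (SD, n = 4) against -6.85 ± 1.14 in PC14, where 2 of 4 arrays were well above background. A second CYP3A7 probe was fainter, with an A549 mean of -5.81, and above background on 1 A549, 0 PC14 and 0 PC14CDDP arrays. CYP3A4, the major adult liver form, was faint and did not pass the test (0.67 ± 0.31 SE, limma adjusted p = 0.0885). CYP2B6 was higher by 1.07 ± 0.12 and CYP2A13, which activates tobacco nitrosamines, by 0.51 ± 0.15. A second CYP2B6 probe, which also lists CYP2B7P, was well above background on all 12 arrays. It averaged -2.94 in A549 and -3.14 in PC14, a difference of 0.21, so the size of the CYP2B6 rise depended on the probe. The lower genes were CYP2D6, CYP2C18 and CYP2C19, which also varied with the transfections as described further on, and the calls for CYP2C18 and CYP2C19 were each lost without the NC, the pre-miR-197 or the LNA-miR-197 arrays, with limma adjusted p-values of 0.0705 to 0.133. In PC14CDDP, 0 of the 11 were higher than in PC14 and 3 lower, among them CYP2D6 (-0.62 ± 0.19 SE, limma adjusted p = 0.0271) and CYP2C19 (-1.33 ± 0.46, limma adjusted p = 0.0425), the last one lost without any of the same 3 sets of arrays (0.136 to 0.165). CYP2W1, a P450 first known from fetal tissue and colon tumors, stayed between 8.13 and 8.42 on all 12 arrays and was not called in any comparison. It was named after its values were seen.

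The P450s that hydroxylate fatty acids and eicosanoids included a neighborhood on chromosome 19 that was high in A549. The probes of 6 tested CYP4F genes lie on chr19:15662720-16023422 (hg19), and CYP4F8, CYP4F3, CYP4F12, CYP4F2 and CYP4F11 were all higher in A549 than in PC14, while CYP4F22 was lower. CYP4F11, which acts on long-chain fatty acids and vitamin K, was at 0.02, 0.59, 0.47 and 0.59 in A549 and between -8.18 and -7.42 in the other lines, with both of its probes well above background in A549 only. It was at least 103-fold higher in A549 than in PC14, and CYP4F12 and CYP4F2 were at least 19.3-fold and 11.5-fold higher. A second CYP4F2 probe was fainter, with an A549 mean of -5.90, and above background on 1 A549, 0 PC14 and 0 PC14CDDP arrays. CYP4F22, which makes skin ceramides, was the reverse: it was faint but above background on all 4 PC14 arrays (between -6 and -5.02) and on 0 of 8 others, a bound of at least 1.49-fold over A549 and 1.23-fold over PC14CDDP.

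CYP4F3, the leukotriene B4 hydroxylase, separated PC14CDDP from its parent. PC14 signal was -5.21, -5.94, -6.22 and -6.55, with 2 of 4 arrays well above background, PC14CDDP signal was -2.71, -3.20, -3.23 and -1.11, and A549 signal was -1.18, -0.94, -0.55 and 1.00. No PC14 array reached either other line, and in each of the other 2 lines the LNA-miR-197 array was the brightest. PC14CDDP was higher than PC14 by 3.41 ± 0.52 (SE, limma adjusted p = 0.00087). CYP2J2, which makes epoxides of arachidonic acid, ran the other way in A549. It was at -4.78, -4.69, -5.06 and -4.43 there, whereas PC14 ranged from 0.30 to 0.56 and PC14CDDP from 1.11 to 1.41, without overlap between any of the lines. The log2 difference was -5.14 ± 0.13 for A549 against PC14 (limma adjusted p = 2.3e-08) and 0.84 ± 0.13 for PC14CDDP against PC14 (limma adjusted p = 0.00114). CYP2U1, another fatty acid hydroxylase, was slightly higher in PC14CDDP than in PC14 (0.47 ± 0.10, limma adjusted p = 0.00545), and CYP4V2 was lower (-0.78 ± 0.26, limma adjusted p = 0.038).

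**Figure D3:**
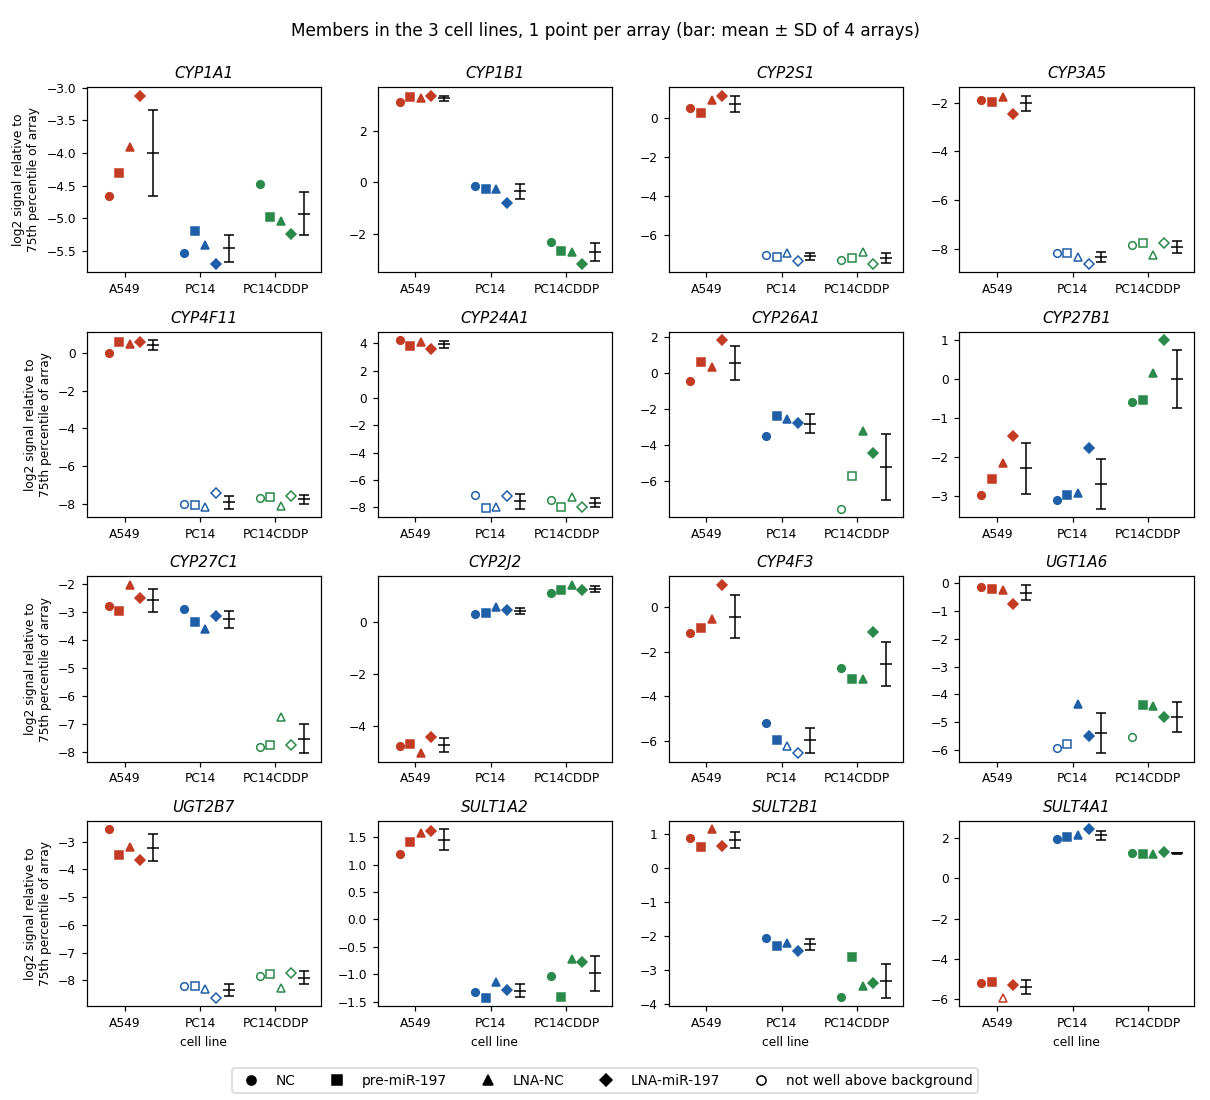
Log2 signal, with 0 at the array's 75th percentile, for 16 members in A549 (red), PC14 (blue) and PC14CDDP (green), 1 point per array with the shape giving the transfection, open points not well above background, and a bar for the mean ± SD of 4 arrays; each panel has its own vertical scale. CYP24A1, CYP2S1, CYP3A5, CYP4F11 and UGT2B7 have filled points in A549 alone, CYP27C1 has open points in PC14CDDP alone, and CYP1B1 and CYP2J2 form 3 separate bands.

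The vitamin D and retinoid enzymes held the largest fitted difference among the members, for CYP24A1. CYP24A1, the hydroxylase that inactivates vitamin D, was at 4.21, 3.81, 4.05 and 3.56 in A549 and between -8.07 and -7.11 in the other lines, where 0 of 8 arrays were well above background. A549 was at least 1150-fold higher than PC14, and a second CYP24A1 probe showed the same, with a mean of 3.31 in A549 and 0 of 8 arrays above background elsewhere. CYP27B1, which makes active vitamin D, was highest in PC14CDDP: it was at -0.60, -0.53, 0.14 and 0.99 there, against -3.10, -2.98, -2.93 and -1.76 in PC14 and -2.98, -2.55, -2.16 and -1.46 in A549. PC14CDDP was higher than PC14 by 2.69 ± 0.13 (SE, limma adjusted p = 2.1e-06), and its arrays lay above every array of the other lines. A549 and PC14 overlapped, with a difference of 0.40 ± 0.13 (limma adjusted p = 0.02). CYP2R1, the liver enzyme of the first activation step, averaged 2.74 in A549, 2.47 in PC14 and 2.28 for PC14CDDP and was higher in A549 than in PC14 by a small amount (0.27 ± 0.08, limma adjusted p = 0.0142). The vitamin D receptor gene VDR was lower in A549 than in PC14 (-1.53 ± 0.13 SE, limma adjusted p = 1.6e-05) and higher in PC14CDDP (0.72 ± 0.13, limma adjusted p = 0.0021).

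CYP26A1, which degrades retinoic acid, fell in steps from A549 through PC14 to PC14CDDP. Its signal was -0.45, 0.59, 0.32 and 1.82 in A549, -3.50, -2.35, -2.55 and -2.75 in PC14, and -7.50, -5.71, -3.18 and -4.42 in PC14CDDP, where the NC and pre-miR-197 arrays were not well above background. PC14CDDP was lower than PC14 (-2.41 ± 0.59 SE, limma adjusted p = 0.0095), with the PC14CDDP LNA-NC array inside the range of PC14. This call was lost without the NC arrays (limma adjusted p = 0.0579) and without the pre-miR-197 arrays (limma adjusted p = 0.0677). CYP26B1, its relative with the same substrate, was higher in PC14CDDP than in PC14 (1.43 ± 0.25, limma adjusted p = 0.00186). CYP27C1, a retinoid desaturase, was at -2.90, -3.34, -3.62 and -3.15 in PC14 and well above background on 0 PC14CDDP arrays, so that PC14 was at least 6.07-fold higher (limma adjusted p = 9.3e-06). Its second probe was above background on all 4 PC14 arrays and on 1 of PC14CDDP. RXRA, the shared receptor partner for retinoids and vitamin D, was lower in PC14CDDP than in PC14 as well (-1.27 ± 0.09, limma adjusted p = 1.8e-05) and higher in A549 (1.01 ± 0.09).

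Of 4 sterol and bile acid enzymes tested, 1 was lower in A549 and 1 in PC14CDDP than in PC14, and of 3 steroid hormone enzymes 1 was higher and 1 lower in A549 and 0 were called in PC14CDDP. CYP51A1, a demethylase of cholesterol synthesis, was lower in PC14CDDP (2.23, 2.51, 2.07 and 2.59) than in PC14 (2.81, 3.15, 2.85 and 3.03), without overlap and by -0.61 ± 0.09 (SE, limma adjusted p = 0.00059), and did not pass the test for A549 against PC14 (-0.04 ± 0.09, limma adjusted p = 0.705). CYP27A1, a sterol side-chain hydroxylase, and CYP11A1, the side-chain cleavage enzyme that starts steroid synthesis, were lower in A549 than in PC14, by -0.98 ± 0.34 (limma adjusted p = 0.0307) and -0.71 ± 0.21 (limma adjusted p = 0.0177). CYP17A1, of androgen synthesis, was higher (1.13 ± 0.13, limma adjusted p = 8.0e-05). CYP39A1, an oxysterol hydroxylase, had 1 array far from the others: PC14CDDP after NC was at -0.67, and the other PC14CDDP arrays were at -5.16, -5.62 and -4.78. UGT2B15 had another, at -1.71 in PC14CDDP after pre-miR-197 against -6.12, -6.83 and -7.26, and each gene has 1 probe. Both genes were named after their values were seen.

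Of 7 UGT genes tested, 5 were higher in A549 than in PC14 and 0 lower, and 1 (UGT1A8) was called between PC14CDDP and PC14, where it was not well above background in either line, so that no fold is given. UGT3A1, at a mean of -5.43 in A549, -5.69 in PC14 and -5.59 for PC14CDDP, and UGT2B15 were not called in either comparison. The UGT1A6 probe lies in the exons that all UGT1A isoforms share and lists UGT1A1, UGT1A4, UGT1A6 and UGT1A8, so it reads the sum of these phenol- and bilirubin-conjugating forms. It was at -0.14, -0.19, -0.24 and -0.74 in A549, -5.94, -5.79, -4.34 and -5.50 in PC14 and -5.55, -4.39, -4.42 and -4.83 in PC14CDDP. A549 stood above every other array, by 5.07 ± 0.30 (SE) against PC14 (limma adjusted p = 2.1e-06), and PC14 and PC14CDDP overlapped. The UGT1A8 probe, which also lists several UGT1A forms, was well above background in A549 only, at least 12.6-fold over PC14. The UGT1A6 probe, which lists UGT1A8 too, was well above background on 2 PC14 and 3 PC14CDDP arrays. A second UGT1A6 probe, which lists the same forms as the first, was so on 4 A549, 0 PC14 and 1 PC14CDDP arrays. Each of these probes lists several forms, so neither presence nor absence of UGT1A8 itself can be read from them. UGT2B7, which conjugates morphine and steroids, was at -2.56, -3.47, -3.19 and -3.67 in A549 and not well above background elsewhere, at least 8.24-fold over PC14, while its second probe was above background on 0 arrays. Its neighbors UGT2B11 and UGT2B10 on chromosome 4 were higher in A549 by 2.89 ± 0.14 and 1.80 ± 0.18. The probe of UGT2B10 also lists UGT2B11 and that of UGT2B11 also lists UGT2B28, so the forms are uncertain. UGDH, which makes the UDP-glucuronic acid that UGTs use, was also higher in A549, by 3.62 ± 0.08 (limma adjusted p = 9.6e-09).

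The sulfotransferases split in direction. Of 6 tested, 5 were higher in A549 than in PC14 and 1 lower. SULT4A1, a brain form with no well-defined substrate, was the lower one, at -5.19, -5.16, -5.92 and -5.27 in A549, 1.94, 2.03, 2.14 and 2.42 in PC14 and 1.24, 1.19, 1.22 and 1.28 in PC14CDDP. The lines did not overlap, with a log2 difference of -7.52 ± 0.16 (SE, limma adjusted p = 9.0e-09) for A549 and -0.90 ± 0.16 (limma adjusted p = 0.00209) for PC14CDDP, each against PC14. SULT2B1, which sulfates cholesterol, was the opposite in A549 (0.88, 0.61, 1.13 and 0.65, against -2.05, -2.30, -2.22 and -2.43 in PC14), higher by 3.07 ± 0.24 (limma adjusted p = 8.7e-06), and lower in PC14CDDP than in PC14 (-3.79, -2.63, -3.48 and -3.40; -1.08 ± 0.24, limma adjusted p = 0.00566). The phenol-sulfating SULT1A2 and SULT1A4 were higher in A549 by 2.74 ± 0.11 and 1.88 ± 0.12, the second from a probe that also lists SULT1A1 and SULT1A3. PAPSS2, which makes the sulfate donor PAPS, was higher in A549 by 2.58 ± 0.16, whereas its sister PAPSS1 was lower (-0.49 ± 0.09). In PC14CDDP the same pair went the other way against PC14, with PAPSS2 at -0.49 ± 0.16 and PAPSS1 at 0.61 ± 0.09, all past the threshold.

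Other partners and regulators gave this background. The P450 reductase POR, which feeds electrons to the microsomal P450s, was level at 4.72 ± 0.31, 4.69 ± 0.19 and 4.59 ± 0.27 (SD, n = 4) in A549, PC14 and PC14CDDP. Of 15 partner and cosubstrate genes tested, 8 were higher and 4 lower in A549 than in PC14, and 4 were higher and 8 lower in PC14CDDP than in PC14. Epoxide hydrolase EPHX1 and the quinone reductase NQO1 were higher in A549, by 2.16 ± 0.13 and 1.43 ± 0.15. FOXA2, a liver- and lung-type factor, was lower in PC14CDDP than in PC14 (-3.09 ± 0.16 SE, limma adjusted p = 3.7e-06), as was the fatty acid receptor PPARA (-2.53 ± 0.16, limma adjusted p = 1.1e-05).

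The transfections asked which genes the microRNA moves. MIR197 is on chromosome 1 and gives the mature forms below, from RefSeq (GRCh38.p14, chr1:109598901-109598923 and chr1:109598940-109598961, plus strand). The seed, bases 2 to 8, by which a microRNA pairs with its targets, is in capitals, and the arms share no seed.
hsa-miR-197-5p: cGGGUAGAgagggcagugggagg
hsa-miR-197-3p: uUCACCACcuucuccacccagc

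After pre-miR-197, 0 of 51 members passed limma's adjusted threshold against NC, in either direction, and 6 had an unadjusted p under 0.05. Among all genes, 0.137% were lower and 0.0805% higher. By a rule without a test, a change of at least 1.2-fold the same way in all 3 lines, 2 members were lower (CYP24A1 and SULT6B1, with 4.94% of all genes) and 4 higher (CYP2D6, CYP4V2, CYP26A1 and CYP27A1, with 3.87% of all genes). The 2 lower members are 3.92% of those tested and the 4 higher members 7.84%. The fitted difference of CYP24A1 was -0.62 ± 0.27 (SE, limma adjusted p = 0.31), and only in A549, from 4.21 to 3.81, was it measured above background. SULT6B1 was well above background on 1 of 3 pre-miR-197 arrays, CYP27A1 on 1 of 3 NC arrays and CYP26A1 on 2 of 3 arrays of each. Their changes therefore rest in part on signals below background.

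LNA-miR-197 gave more calls against LNA-NC: 2 members were higher (3.92%, with 3.90% of all genes) and 4 lower (7.84%, with 3.86% of all genes). The higher ones were CYP27B1 and CYP51A1, and the lower ones CYP2C18, CYP2C19, CYP2D6 and CYP21A2. All 6 calls were lost when the A549, the PC14 or the PC14CDDP arrays were left out, which leaves 0 calls each time, and with the slide in place of the line as a term. As the plot of the 4 transfections shows, the 4 lower genes were brightest on the LNA-NC arrays. In the comparison of LNA-NC with NC, 1 member, CYP2D6, was higher (1.96%, with 0.495% of all genes) and 0 were lower (with 0.201% of all genes). This call was lost too without any of the 3 lines. By the 1.2-fold rule the members counted after LNA-miR-197 were 5 lower and 1 higher (9.80% and 1.96%, with 7.92% and 6.95% of all genes), and on LNA-NC against NC 4 lower and 8 higher (7.84% and 15.7%, with 4.34% and 4.69% of all genes). These comparisons share the LNA-NC arrays, so a rise in one and a fall in the other are not separate evidence.

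**Figure D4:**
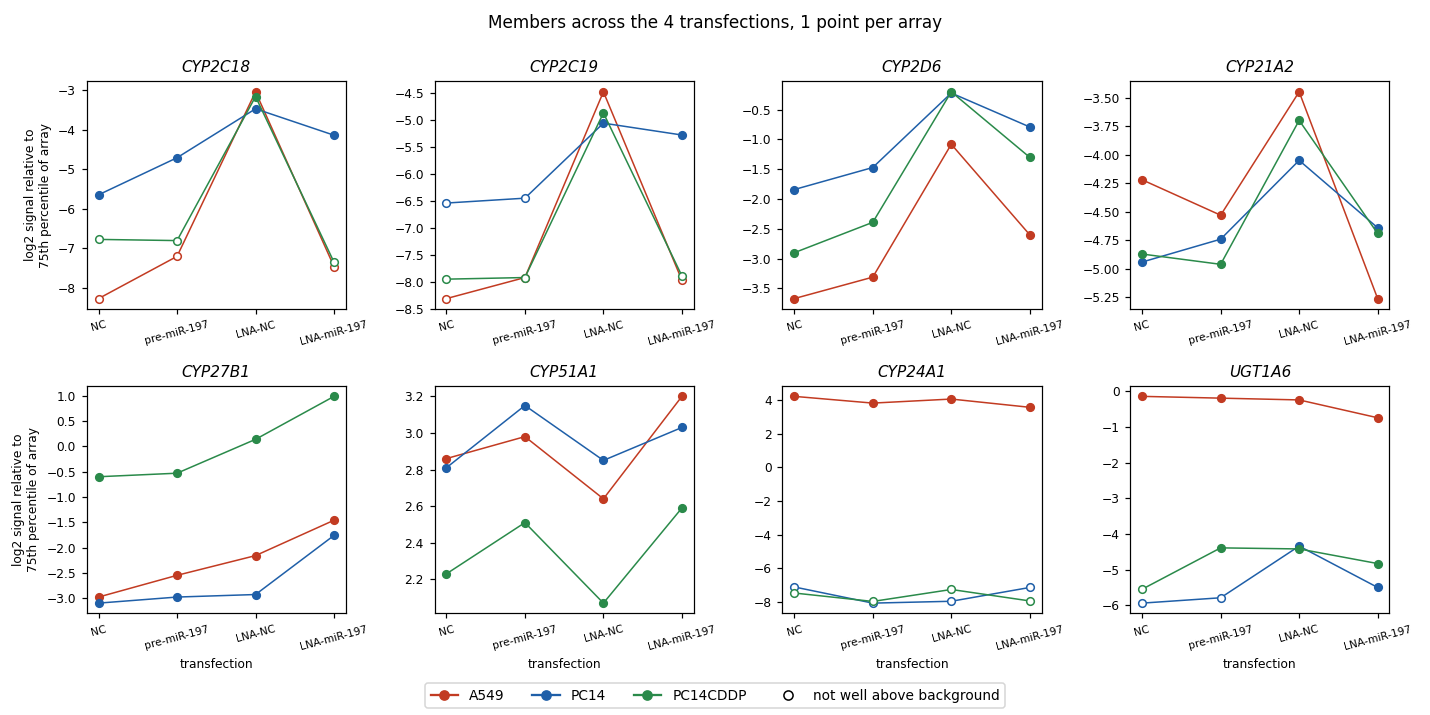
Log2 signal, with 0 at the array's 75th percentile, for 8 members after NC, pre-miR-197, LNA-NC and LNA-miR-197, 1 point per array joined within A549 (red), PC14 (blue) and PC14CDDP (green), open where not well above background; each panel has its own vertical scale. LNA-NC is the highest point of every line for CYP2C18, CYP2C19, CYP2D6 and CYP21A2, and LNA-miR-197 is the highest point of every line for CYP27B1.

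CYP2D6, which oxidizes many antidepressants and opioids, was at -3.67, -3.31, -1.08 and -2.60 in A549 after NC, pre-miR-197, LNA-NC and LNA-miR-197, at -1.84, -1.47, -0.22 and -0.79 in PC14 and at -2.90, -2.39, -0.20 and -1.30 in PC14CDDP. The order of the transfections was identical in the 3 lines, with LNA-NC highest and NC lowest. LNA-NC exceeded NC by 2.30 ± 0.22 (SE, limma adjusted p = 0.00802), LNA-miR-197 was below LNA-NC (-1.06 ± 0.22, limma adjusted p = 0.0327), and LNA-miR-197 exceeded NC by 1.24 ± 0.22 (limma adjusted p = 0.0147). This contrast was added after the values were seen. Pre-miR-197 lay above NC in each line, by 0.42 ± 0.22, which did not pass the test (limma adjusted p = 0.397). By the brightest probes, CYP2D6 alone among members moved at least 1.2-fold up in all lines after pre-miR-197 and down in all after LNA-miR-197. The share of all genes with this pattern is not given here. The 2 CYP2D6 probes are shown because they read different stretches and one also lists CYP2D7. The first lies at chr22:42523909-42523968 and the second, which spans a splice junction, within chr22:42522958-42523471 (hg19, as in the files, both read on the minus strand).
CYP2D6 probe listing CYP2D6 only: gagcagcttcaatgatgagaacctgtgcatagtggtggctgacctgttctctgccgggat
CYP2D6 probe also listing CYP2D7: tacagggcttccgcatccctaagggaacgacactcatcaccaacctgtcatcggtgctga
The values above are from the second probe. On the first, LNA-NC exceeded NC by 2.30, 1.47 and 2.65 in the lines A549, PC14 and PC14CDDP. LNA-miR-197 lay below LNA-NC at -1.83, -0.87 and -1.55, so both probes moved alike in these comparisons. Pre-miR-197 exceeded NC on the first probe by 0.25, 0.11 and 0.61, which falls short of 1.2-fold in A549 and PC14.

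The CYP2C genes lie side by side on chromosome 10, and CYP2C18 and CYP2C19 shared this pattern. CYP2C18 was at -8.28, -7.21, -3.04 and -7.47 in A549, -5.65, -4.71, -3.47 and -4.14 in PC14 and -6.78, -6.81, -3.16 and -7.36 in PC14CDDP. In A549 and PC14CDDP only the LNA-NC array was well above background, and in PC14 all 4 arrays were. CYP2C19 was well above background on all 3 LNA-NC arrays (-4.48, -5.06 and -4.87) and otherwise only on the PC14 LNA-miR-197 array (-5.28). For each gene 1 of 3 LNA-miR-197 arrays was well above background, so that the size of the fitted differences from LNA-NC, -3.10 ± 0.68 (SE) for CYP2C18 (limma adjusted p = 0.0363) and -2.24 ± 0.53 for CYP2C19, rests in part on signals below background. CYP2C19 passed the filter through its 3 LNA-NC arrays, and its call is therefore only described. Compared with NC, the fitted differences of LNA-miR-197 were 0.58 ± 0.68 for CYP2C18 and 0.56 ± 0.53 for CYP2C19, neither past the threshold (limma adjusted p = 0.589 and 0.498), and with at most 1 of 3 arrays of either group above background no direction is read from them. LNA-NC against NC gave CYP2C18 3.68 ± 0.68 and CYP2C19 2.80 ± 0.53, also short of it (limma adjusted p = 0.0624 and 0.068). For CYP2C19, whose NC arrays were all below background, LNA-NC was at least 2.29-fold higher than NC.

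CYP21A2, the adrenal hydroxylase of cortisol synthesis, was called lower after LNA-miR-197 by one probe and not by another. On the first, LNA-NC was the brightest array of each line (-3.45, -4.05 and -3.70) and LNA-miR-197 gave -5.26, -4.64 and -4.69, a difference of -1.13 ± 0.25 (SE, limma adjusted p = 0.038). This probe also lists the pseudogene CYP21A1P. The second probe, which lists CYP21A2 only, was higher on LNA-miR-197 than on LNA-NC in each line, by 0.66, 0.09 and 0.30, so the direction depended on the probe.

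CYP27B1 was the member called in the same direction against either control. Its LNA-miR-197 arrays were at -1.46, -1.76 and 0.99 in A549, PC14 and PC14CDDP, against -2.16, -2.93 and 0.14 after LNA-NC and -2.98, -3.10 and -0.60 after NC. The array after LNA-miR-197 was the highest of its line in all 3. The difference was 0.91 ± 0.15 (SE) against LNA-NC (limma adjusted p = 0.0212) and 1.48 ± 0.15 against NC (limma adjusted p = 0.00546). After pre-miR-197 it was 0.20 ± 0.15 (limma adjusted p = 0.541), also above NC in each line. CYP51A1 was at 3.20, 3.03 and 2.59 after LNA-miR-197 against 2.64, 2.85 and 2.07 after LNA-NC, a rise of 0.42 ± 0.10 (limma adjusted p = 0.0442), and compared with NC the value was 0.31 and missed the threshold (limma adjusted p = 0.0739). UGT1A6 was lower on the LNA-miR-197 array than on the LNA-NC array of each line, at -0.74, -5.50 and -4.83 against -0.24, -4.34 and -4.42, with a fitted difference of -0.69 ± 0.35 that was not called (limma adjusted p = 0.245). Of the members that separated the lines, CYP1B1, CYP2J2, CYP2S1, CYP3A5, CYP4F11, SULT2B1 and SULT4A1 were not called in any comparison of transfections, with limma adjusted p-values of 0.142 or more, and their SD within a line was at most 0.49 on the log2 scale. Among the 14 regulators, TIPARP (0.60 ± 0.12, limma adjusted p = 0.0276) and KEAP1 (0.53, limma adjusted p = 0.0438) were higher and PPARA (-0.77 ± 0.19, limma adjusted p = 0.0474) lower after LNA-miR-197 against LNA-NC. AHRR was higher on LNA-NC than on NC (1.80 ± 0.29, limma adjusted p = 0.0453), but only 1 of 3 NC arrays was well above background for it. Over all genes, the LNA-miR-197 calls fell from 1928 to 0, 2 and 0 without the A549, PC14 and PC14CDDP arrays. How the regulator calls fared there is not given here. Of the 15 partner genes, 0 were called in any of these comparisons.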

How the data were processed

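Total RNA of 12 transfected cultures was hybridized to one-color (Cy3) human gene expression arrays, 1 each. The authors deposited scanner files whose intensity columns come from Agilent Feature Extraction 10.7.3.1, per the file headers, and a table whose values are the same processed signals. The normalization used in the study is not given in the sources used here.

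Processed signals were divided by the 75th percentile over the non-control spots of their array and put on a log2 scale. Probes well above background on at least 3 arrays were kept (33712 of 50599; 106 with a missing value were left out), each gene was represented by its brightest probe on average, and 24856 genes were tested. Saturated probes were not found on any array. By accession, 28174 probes (55.7%) matched RefSeq genes, which served to list the genes a probe shares. Differences were fitted with limma 3.58.1 (R 4.3.3) with transfection and line as terms over all 12 arrays, Benjamini-Hochberg adjustment and a threshold of 0.05, in code tested on simulated data. The line pairs the arrays: deviations of arrays from the mean of their transfection correlated at 0.848 to 0.948 within each line. Lists and figures were made with Python 3.11.15, numpy 2.4.6, pandas 2.3.3 and matplotlib 3.10.9. Replicates within a line are lacking, and the number of arrays limits the precision.

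Alternatives were normexp background correction (offset 50), quantile normalization, the deposited table, no filter, the mean of the probes of a gene, the methods' t-test, leaving out each line or transfection, no term for the line or transfection, and the slide as a block. Setting NC in place of LNA-NC was added after the data were seen. The members and lists were chosen with earlier results of these data known. Named members were those called in a comparison of transfections, the 6 largest differences each way between lines, those above background in 1 line only, those changed at least 1.2-fold in opposite ways by pre-miR-197 and LNA-miR-197, and a fixed set of well-known members. CYP39A1, UGT2B15, UGT2B11, SULT1A2, SULT1A4, CYP4V2, CYP2W1, CYP2R1, CYP20A1, CYP4F2, CYP27A1 and SULT6B1 were added after their values were seen, as were the others of a list named beside its count. 0 columns of other samples were found.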

Additional observations from a re-analysis of the deposited data

Results flagged for a closer look

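In 77 tests of 1 array against the other 3 of its line, 6 values stood apart, 3 on the NC array of PC14CDDP, 2 on the LNA-miR-197 array of A549 and 1 on that of PC14, with a gap to the nearest array that took up more of the range of the line than Dixon's critical value for 4 arrays. Chance gives about 1 in 20. The tests did not cover every gene in every line, so other values may stand apart too. CYP39A1 was high in PC14CDDP after NC (-0.67, with the others from -5.62 to -4.78; ratio of gap to range 0.830). CYP27B1 was high in PC14 after LNA-miR-197 (-1.76, with the others from -3.10 to -2.93; 0.875), the transfection in which it was called higher. UGT1A6 was low in A549 after LNA-miR-197 (-0.74, with the others from -0.24 to -0.14; 0.843). On the NC array of PC14CDDP, CYP1A2 (-3.04, with the others from -2.71 to -2.68; 0.921) and CYP20A1 (1.22, with the others from 1.62 to 1.66; 0.907) were low. CYP2W1 was low in A549 after LNA-miR-197 by a small amount (8.24, with the others from 8.41 to 8.42; 0.933).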

How the results depend on the processing

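The calls between lines depended less on the processing than those between transfections. The 39 members called between A549 and PC14 became 31 to 42 under the alternatives, and the 19 between PC14CDDP and PC14 became 12 by the methods' t-test, 13 with no replicate block and 14 to 22 under the others, 14 to 21 of them on leaving out a transfection. For LNA-miR-197 against LNA-NC, the 6 calls became 1 with no filter on dim probes, 0 by the methods' t-test, 0 with no replicate block, 0 with the slide as a block and 0 to 0 on leaving out each line. LNA-NC against NC went from 1 call to 2 with normexp, 0 by the methods' t-test, 0 with no replicate block and 0 to 1 on leaving out each line. Pre-miR-197 against NC gave 0 under every alternative run. With NC in place of LNA-NC, added after the data were seen, the LNA-miR-197 difference reversed for CYP2D6 (1.24), the fitted sign also changed for CYP2C18 (0.58) and CYP2C19 (0.56), mostly below background there, and of 4 members called 2 were among the 6. Normexp shifted the median of all genes between A549 and PC14 to 0.1162, from 0.0808. The lower bounds on folds between A549 and PC14 hold for the main processing only. Under the alternatives, the lowest log2 difference was 7.55 for CYP24A1, 4.15 for CYP2S1, 3.96 for CYP4F11, 1.96 for CYP3A5 and 1.35 for UGT2B7. The main bounds on that scale were 10.17, 6.98, 6.68, 4.23 and 3.04. CYP4F12 and UGT1A8 fell below their bounds too. Over all genes, calls for pre-miR-197 went from 54 to between 0 and 576, for LNA-miR-197 from 1928 to between 0 and 3709, for LNA-NC from 173 to between 0 and 192 and for PC14CDDP from 12053 to between 8038 and 13616. The cause of these changes was not tested. Dim probes limit the rest: 27 of the 51 members were below background on at least 1 array.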
